A study of Homo sapiens with 6 samples.

Results

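Caspases are proteases that cut their targets after aspartate, and they are the machinery through which apoptosis takes a cell apart. The genes described here are 8 of the 20020 genes in the table of counts, chosen by name: the initiator caspases CASP9, CASP2, CASP8 and CASP10, the executioner CASP6, the apoptosome components APAF1 and CYCS, and the inhibitor XIAP. They were measured by RNA-seq in HCT116, a human colorectal carcinoma cell line, in 3 libraries of CAD knockout cells and 3 libraries of control cells. CAD is the caspase-activated DNase encoded by DFFB, and the executioner caspases release it from its inhibitor ICAD (DFFA). In this pathway it therefore lies downstream of the initiator caspases and the apoptosome. The knockout cells, CAD-KO2, carry a single guide RNA against CAD from the lentiCRISPRv2 plasmid and stand for a single knockout line, and the control cells, sgVec, carry the vector control. Both were irradiated (IR) with 8 Gy and sampled after 24 h. Dose, time and the guide come from the paper's description of the experiment, since the labels give the genotype and, in the titles, IR. The paper names CAD-KO2 in its enrichment results but only CAD-KO in the legend of its volcano plot. The 2 groups are called CAD-KO2+IR and sgVec+IR. Unirradiated cells were not analysed here, so no value below is a response to radiation. No source states that the replicates are separate cultures, so a p-value measures only the spread between these libraries, which may be technical.

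In the intrinsic pathway, cytochrome c (CYCS) leaves the mitochondria, binds APAF1 and builds with it the apoptosome, the wheel-shaped complex on which caspase-9 becomes active. In the extrinsic pathway, caspase-8 and caspase-10 are activated at death receptors through the adaptor FADD, and caspase-2 is activated on the PIDDosome, a platform of PIDD1 and CRADD that is known for its part in the response to DNA damage. Initiators then cut the executioners, and XIAP binds caspase-9 and executioner caspases and blocks them. These steps are controlled mainly at the level of protein (cleavage, release and binding), whereas the counts measure mRNA.

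The 5 caspases share the stretch of coding sequence around the active-site cysteine, which is printed here because it is what makes these genes a family while their expression levels differ widely. The sequences are those of GENCODE release 29 on GRCh38, in the 5′ to 3′ direction of the mRNA, and not read from these libraries. Capitals mark the 5 codons for glutamine, alanine, the active-site cysteine, any residue and glycine. In CASP9 the window joins exons 6 and 7 of CASP9-201, in CASP2 exons 8 and 9 of CASP2-201 and in CASP6 exons 5 and 6 of CASP6-201. In CASP8 it lies within exon 9 of CASP8-212 (chr2:201285070-201285114, forward strand) and in CASP10 within exon 9 of CASP10-202 (chr2:201209327-201209371, forward strand).
CASP9: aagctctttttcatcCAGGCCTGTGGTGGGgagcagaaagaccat
CASP2: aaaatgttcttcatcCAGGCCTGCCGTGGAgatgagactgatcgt
CASP8: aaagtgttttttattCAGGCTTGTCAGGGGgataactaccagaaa
CASP10: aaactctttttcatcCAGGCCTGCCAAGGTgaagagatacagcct
CASP6: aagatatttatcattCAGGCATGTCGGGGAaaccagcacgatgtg

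Over the 45 bases of this window, pairs of the 5 genes were identical at 24 to 33 positions. The closest pairs were CASP9 with CASP10 and CASP2 with CASP10, at 33 of 45 bases each, and CASP8 and CASP10, which lie next to each other on chromosome 2, were identical at 28. Shared stretches of 50 bases, which could divert reads between genes, were rare. In CASP9 0% of all 50-base stretches of its transcripts occurred in another annotated gene, and in CASP2, CASP8, CASP10, CASP6 and APAF1 the share was between 0.319% and 0.930%. It was 3.76% in CYCS, where 9 pseudogenes were among the genes that share a stretch, and 4.37% in XIAP, where 16 were. Counts of CYCS and XIAP are to that extent uncertain. The CYCS sequence shown next is the coding sequence in exon 2 of CYCS-201 (chr7:25124048-25124092, reverse strand) whose 5 capital codons encode cysteine, any residue, any residue, cysteine and histidine, the site at which haem is attached to cytochrome c.
CYCS: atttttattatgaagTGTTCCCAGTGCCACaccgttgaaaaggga

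The gene positions on GRCh38 are as follows. CASP9 (ENSG00000132906.18) spans chr1:15490832-15526534 on the reverse strand, and CASP2 (ENSG00000106144.20) spans chr7:143288215-143307696 on the forward strand. CASP10 (ENSG00000003400.16) at chr2:201182881-201229406 is followed on the same forward strand by CASP8 (ENSG00000064012.24) at chr2:201233443-201287711. CASP6 (ENSG00000138794.10) lies at chr4:109688622-109703583 on the reverse strand. APAF1 (ENSG00000120868.14) lies at chr12:98645141-98735433 on the forward strand, CYCS (ENSG00000172115.9) at chr7:25120091-25125361 on the reverse strand and XIAP (ENSG00000101966.14) at chrX:123859724-123913979 on the forward strand. CASP9 overlaps CELA2B, CASP6 overlaps MCUB and AC004067.1, APAF1 overlaps ANKS1B and XIAP overlaps XIAP-AS1 and AL121601.2, each on the opposite strand. CASP10 overlaps the pseudogenes MTND4LP13, MTND4P23 and MTND5P25, also on the opposite strand. On the same strand CASP2 overlaps RN7SL481P and RN7SL535P, and XIAP overlaps RNU6-122P. The strand setting of the counting is not given in the sources used here, so reads of such partners cannot be told apart.

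The libraries held between 14032994 and 19574144 counts. DFFB, the targeted gene, was at 10.8 ± 1.32 CPM (counts scaled to library size, SD, n = 3) in CAD-KO2+IR and 21.9 ± 0.995 CPM (SD, n = 3) in sgVec+IR, a log2 fold change of -1.02. The groups did not overlap, as in 5.01% of all genes with CAD-KO2+IR lower. DFFB did not pass the edgeR test used below (unadjusted p = 0.00117, adjusted p = 0.550). The adjusted p was 0.108 without sgVec+IR replicate 3 in edgeR and 0.000458 with all libraries in DESeq2. Every library labelled as knockout thus held less mRNA of the targeted gene than every control, but not none. Of 9 markers of colorectal epithelium, 6 had over 10 counts in every library, EPCAM, CDH1 and KRT8 among them, while VIL1, LGALS4 and CDH17 did not. Of 12 markers of immune, fibroblast and endothelial cells only COL1A1 and VWF had over 10 counts in every library. Summed, these 12 came to 26.8 to 42.0 CPM in CAD-KO2+IR and 17.0 to 53.9 CPM in sgVec+IR, against 2767 to 3939 and 2078 to 4032 CPM for the epithelial list. A library of each group stood apart. sgVec+IR replicate 3 had 7561 genes without a count against 4577 to 5232 in the others and correlated with replicates 1 and 2 at 0.890 and 0.886, and CAD-KO2+IR replicate 2 differed from its group along the same property of the transcripts, described further on, but less. Results that rest on sgVec+IR replicate 3 are given with and without it.

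All 8 genes were expressed and passed the filter on low counts. No gene of the 8 passed the test between CAD-KO2+IR and sgVec+IR. With edgeR's quasi-likelihood test, 0 of 8 passed an adjusted p under 0.05 with at least a 1.5-fold change, where 0.0309% of the 12925 genes tested did, and 0 of 8 had an unadjusted p under 0.05, where 2.85% of all genes did. The groups did not overlap in CPM in 0 of 8, against 10.2% of all genes, 5.01% with CAD-KO2+IR lower and 5.23% with it higher. DESeq2 also called 0 of 8, against 0.364% of all genes, and gave 0 of 8 at an unadjusted p under 0.05, against 3.21% of all genes. Between the groups the log2 fold changes ran from -0.34 (APAF1) to 0.34 (CASP10), with 2 genes higher and 6 lower and a median of -0.02, next to -0.01 over all genes, of which 48.1% were higher. The split was 4 higher and 4 lower without sgVec+IR replicate 3. In bulk RNA fewer cells and less RNA per cell cannot be told apart, which holds for every level given here.

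**Figure D1:**
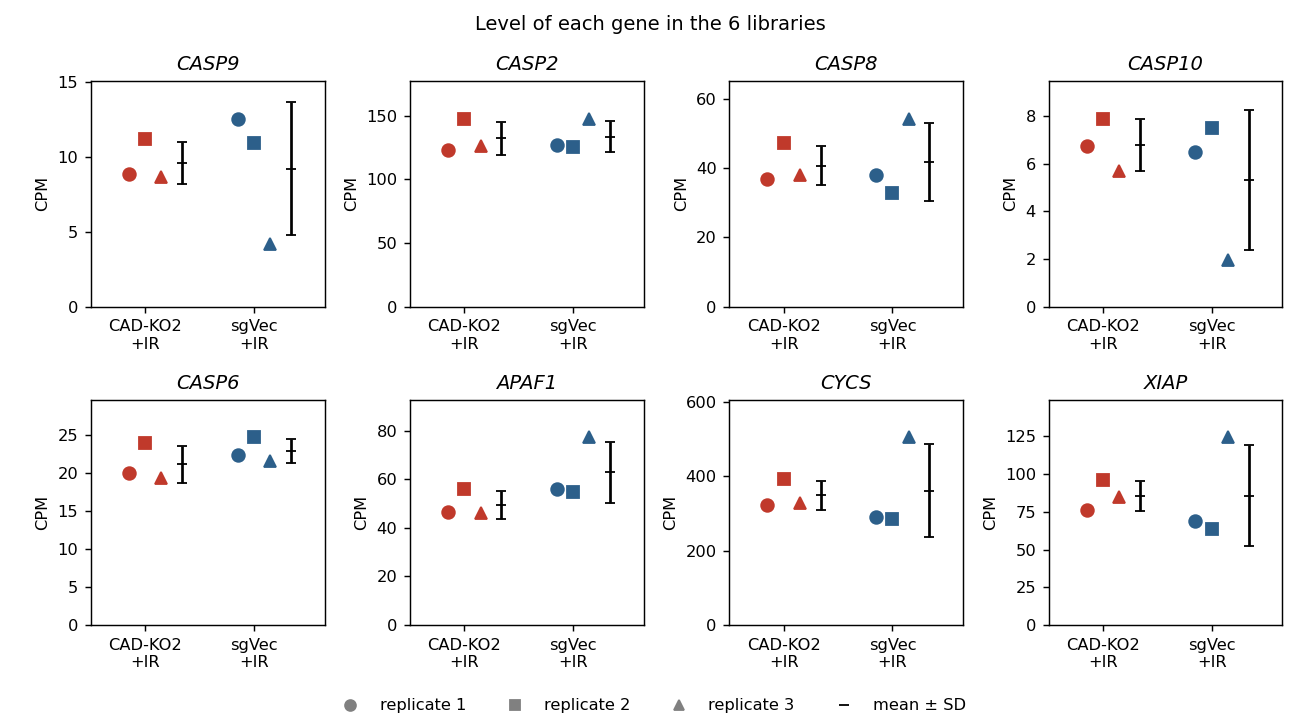
Level of each of the 8 genes in CPM (vertical axes, linear and starting at 0) in the 3 CAD-KO2+IR libraries (red) and the 3 sgVec+IR libraries (blue), with the marker shape giving the replicate and black bars the mean ± SD of each group. The groups overlap in every panel, and sgVec+IR replicate 3 is the lowest library for CASP9 (4.16 CPM) and CASP10 (1.97 CPM) and the highest for CASP2, CASP8, APAF1, CYCS and XIAP.

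CYCS was by far the most abundant of the 8 per length of transcript. Its level was 78.2 ± 8.77 CPM per kb of exon in CAD-KO2+IR and 80.9 ± 28.1 in sgVec+IR (SD, n = 3 each). CASP2 followed at 16.5 ± 1.60 and 16.6 ± 1.54 CPM per kb and was thus the most abundant of the caspases. CASP6 (10.9 ± 1.27 and 11.8 ± 0.837), XIAP (9.49 ± 1.12 and 9.50 ± 3.73), APAF1 (6.26 ± 0.727 and 7.94 ± 1.59) and CASP8 (5.62 ± 0.782 and 5.76 ± 1.55) came next. In sgVec+IR the ranges of mean ± SD of neighbours in this order met. CASP9 (1.81 ± 0.267 and 1.74 ± 0.842) and CASP10 (0.894 ± 0.146 and 0.701 ± 0.388) were the least abundant, and their ranges of mean ± SD met in sgVec+IR but not in CAD-KO2+IR. The initiator of the intrinsic pathway was therefore measured at a far lower mRNA level per length than the 2 components that assemble its platform. The rank was the same in both groups. Lengths are those of all annotated exons and not of the isoforms in use.

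CASP9, the initiator caspase of the apoptosome, was at 8.83, 11.2 and 8.66 CPM in CAD-KO2+IR replicates 1 to 3 and at 12.5, 10.9 and 4.16 CPM in sgVec+IR replicates 1 to 3. The third control library was the lowest of the 6 and the first control library the highest, so the controls enclosed the knockout libraries. The group means were 9.56 ± 1.41 and 9.19 ± 4.44 CPM (SD, n = 3 each), and the log2 fold change was 0.05 (standard error 0.391, 95% interval -0.88 to 0.97, edgeR). The counts behind the lowest value were 59 in sgVec+IR replicate 3 against 205 and 159 in replicates 1 and 2, where counting error alone is at most 13% of the value. The interval is wide because of that library. Without it CASP9 had a log2 fold change of -0.29 with an error of 0.199 (adjusted p = 0.495, edgeR).

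CASP2, the initiator of the PIDDosome, was measured with the smallest standard error of the 8. It was at 123, 147 and 127 CPM in CAD-KO2+IR and 127, 126 and 148 CPM in sgVec+IR. Each group held a pair of libraries near 126 CPM and a higher one. The log2 fold change was -0.01 (standard error 0.158, 95% interval -0.39 to 0.36, edgeR), so a change of 1.5-fold in either direction lies outside the interval. It was 0.0684 without sgVec+IR replicate 3.

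CASP8, the initiator at death receptors, was at 36.9, 47.2 and 37.9 CPM in CAD-KO2+IR and at 38.1, 32.7 and 54.3 CPM in sgVec+IR. Both the lowest and the highest library were controls. Its log2 fold change was -0.03 (standard error 0.240, 95% interval -0.60 to 0.53, edgeR), and it was 0.20 without sgVec+IR replicate 3. CASP10, its neighbour and close relative, was at 6.77, 7.91 and 5.69 CPM in CAD-KO2+IR and at 6.48, 7.53 and 1.97 CPM in sgVec+IR. The third control library held 28 counts of CASP10, against 100 to 150 in the others, and stood alone below the remaining 5. The log2 fold change of 0.34 (standard error 0.438, 95% interval -0.70 to 1.38, edgeR) was the highest value among the 8 and also the least precise. Without sgVec+IR replicate 3 it was -0.04 (adjusted p = 0.938, edgeR). In that library the paired death receptor caspases moved apart: CASP8 was at 1.53 times the mean of sgVec+IR replicates 1 and 2 and CASP10 at 0.282 times.

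CASP6, the executioner caspase that cuts nuclear lamins, was at 20.1, 23.9 and 19.4 CPM in CAD-KO2+IR and at 22.4, 24.7 and 21.6 CPM in sgVec+IR. The controls were slightly higher on average but the second knockout library lay above 2 of them. For CASP6 the log2 fold change was -0.12 (standard error 0.186, 95% interval -0.56 to 0.32, edgeR). As for CASP2 and for no other gene of the 8, a change of 1.5-fold lies outside the interval. CASP6 was also the gene for which sgVec+IR replicate 3 mattered least, at 0.916 times the mean of replicates 1 and 2.

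APAF1, the scaffold of the apoptosome, was at 46.4, 56.1 and 46.0 CPM in CAD-KO2+IR and at 56.1, 55.0 and 77.4 CPM in sgVec+IR. Knockout libraries 1 and 3 were below every control, and library 2 lay among the controls. Its log2 fold change of -0.34 (standard error 0.205, 95% interval -0.83 to 0.14) was the lowest of the 8, with an unadjusted p of 0.138 and an adjusted p of 1.0 from edgeR. APAF1 and CASP6 were the only genes of the 8 with the same sign under all 18 alternative fits, with log2 fold changes between -0.44 and -0.16 for APAF1 and between -0.26 and -0.05 for CASP6.

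CYCS, the cytochrome c that APAF1 binds, was at 323, 394 and 329 CPM in CAD-KO2+IR and at 291, 286 and 505 CPM in sgVec+IR. All 3 knockout libraries lay above the first 2 controls and below the third. For CYCS the log2 fold change came to -0.05 (standard error 0.251, 95% interval -0.64 to 0.54, edgeR). XIAP, the inhibitor, had the same shape, at 76.1, 96.2 and 84.7 CPM in CAD-KO2+IR and at 69.0, 63.7 and 125 CPM in sgVec+IR. Its group means were 85.7 ± 10.1 and 85.8 ± 33.7 CPM (SD, n = 3 each). The log2 fold change was -0.00 (standard error 0.284, 95% interval -0.67 to 0.67, edgeR). Without sgVec+IR replicate 3, the groups of both genes separated, with CAD-KO2+IR higher, as 45.7% of all genes separated in either direction. The log2 fold change was then 0.27 for CYCS (unadjusted p = 0.0700, adjusted p = 0.432, edgeR) and 0.37 for XIAP (unadjusted p = 0.0431, adjusted p = 0.415, edgeR). XIAP was thus 1 of 8 genes with an unadjusted p under 0.05 in that comparison, where 11.9% of all genes had one, and 0 of 8 were called, against 0.167% of all genes.

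**Figure D2:**
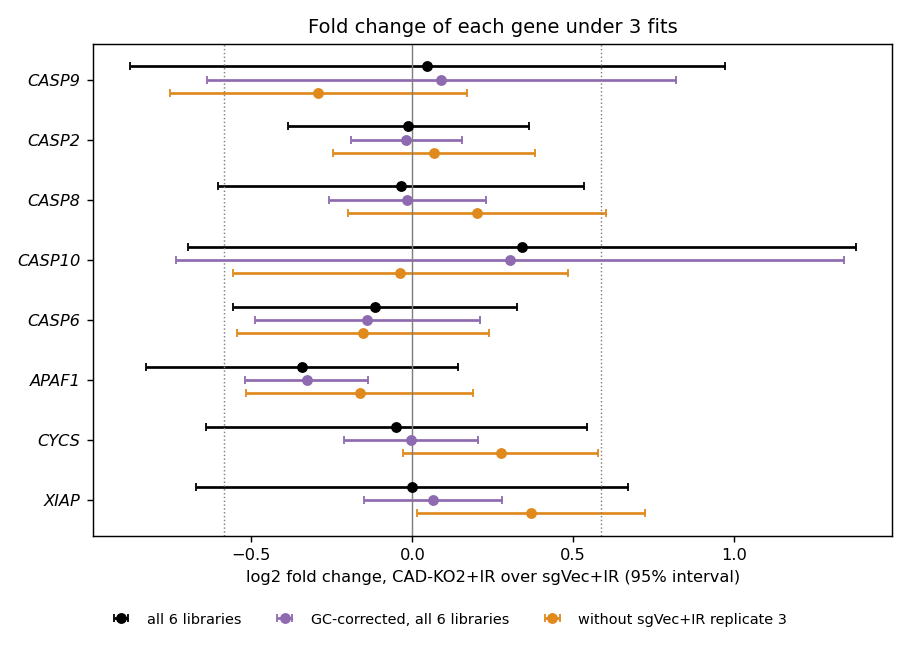
Log2 fold change of CAD-KO2+IR over sgVec+IR for each gene (horizontal axis) with its 95% interval from edgeR, with all 6 libraries (black), with all 6 libraries after correction for GC content (purple) and without sgVec+IR replicate 3 (orange), where dotted lines mark 1.5-fold. All black intervals include 0, the purple interval of APAF1 (-0.52 to -0.14) does not, and the orange points of CYCS and XIAP lie to the right of their black points.

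The libraries that stood apart did so in the 8 genes as well. CAD-KO2+IR replicate 2 was higher than the mean of replicates 1 and 3 in 8 of 8 genes, by 0.23 to 0.34 on the log2 scale, while 50.2% of all genes were higher there. In sgVec+IR replicate 3, relative to the mean of replicates 1 and 2, XIAP was at 1.88 times, CYCS at 1.75 times, CASP8 at 1.53 times, APAF1 at 1.39 times and CASP2 at 1.17 times, whereas CASP6 was at 0.916 times, CASP9 at 0.355 times and CASP10 at 0.282 times. Of the 8 genes 5 were thus higher and 3 lower there. These are common sizes in that library. A larger absolute difference was found in 39.0% of all genes for XIAP, in 18.4% for CASP9 and in 12.7% for CASP10.

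Over all genes both differences followed the base composition of the transcript. Across 12913 genes with a reference transcript, the GC content of the longest transcript and the difference had a Spearman correlation of -0.732 for sgVec+IR replicate 3 and -0.819 for CAD-KO2+IR replicate 2, whereas transcript length gave 0.179 and 0.209. These are correlations across genes within the same libraries, and genes are not independent replicates. The median GC content was 48.7%, and 7 of the 8 genes lay below it: XIAP at 39.0%, CYCS at 41.6%, APAF1 at 41.7%, CASP8 at 42.6%, CASP2 at 43.6%, CASP6 at 45.1% and CASP10 at 46.1%. CASP9 at 52.8% lay above. In sgVec+IR replicate 3 the order from XIAP down to CASP6 largely followed this order of GC content, while CASP10 lay far below the genes of its composition. In CAD-KO2+IR replicate 2 CASP9 was higher although the median gene of its composition was lower. RNA quality was not measured in the files used here, and its part in these differences was not tested.

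**Figure D3:**
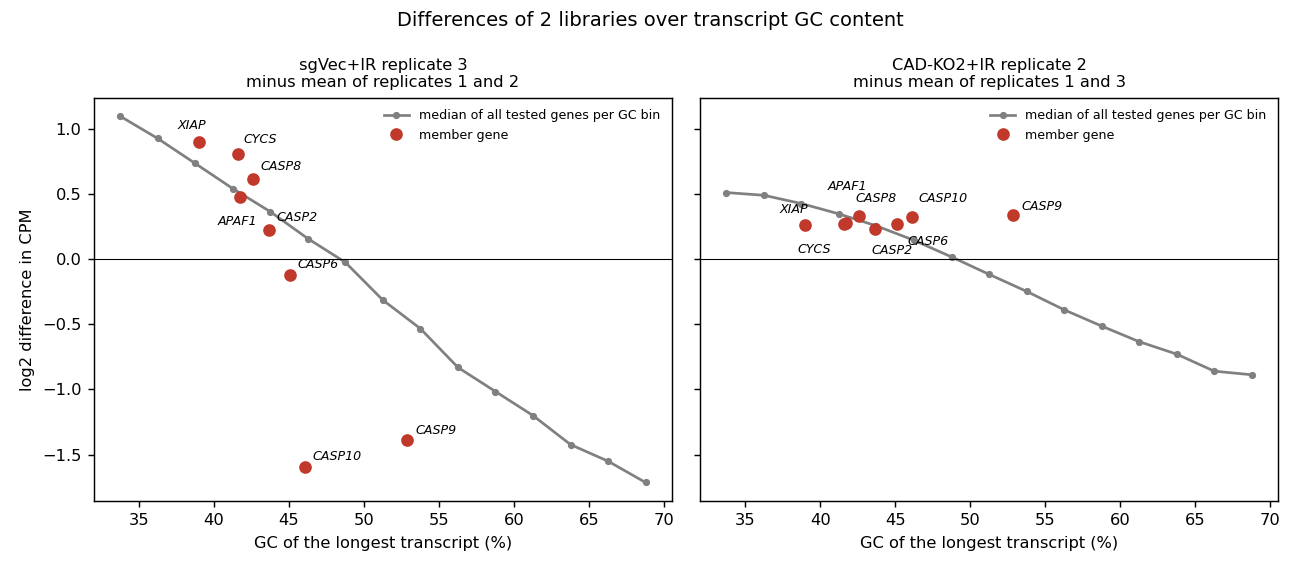
Log2 difference in CPM of sgVec+IR replicate 3 from the mean of replicates 1 and 2 (left) and of CAD-KO2+IR replicate 2 from the mean of replicates 1 and 3 (right) against the GC content of the longest transcript in percent, with the median of all tested genes in bins of GC content in grey and the 8 genes in red. On the left XIAP, CYCS, CASP8, APAF1 and CASP2 lie near the grey line, CASP6 (-0.12) lies below it and CASP10 and CASP9 lie furthest under it. On the right all 8 genes lie above 0.

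When the trend over GC content was taken out of each library, a correction chosen after seeing the data, the replicates of 5 of the 8 genes drew together in both groups. The coefficient of variation (SD over mean) of CYCS went from 11.2% to 2.63% in CAD-KO2+IR and from 34.7% to 11.0% in sgVec+IR, and that of XIAP in sgVec+IR from 39.3% to 7.23%. In CAD-KO2+IR that of CASP2 went from 9.70% to 0.794%. CASP6, CASP9 and CASP10 were each an exception in 1 of the groups. CASP6 in sgVec+IR went from 7.10% to 15.6%, with the third library at 0.766 times the mean of the other 2. CASP10 in sgVec+IR went from 55.4% to 58.7%, with the third library at 0.249 times the mean of the other 2. CASP9 in CAD-KO2+IR went from 14.7% to 23.8%, and the third control library remained at 0.481 times the mean of the other 2. The low values of CASP9 and CASP10 in sgVec+IR replicate 3 were thus present with and without the correction.

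APAF1 separated after the correction. It was at 50.8, 48.1 and 48.4 GC-corrected CPM in CAD-KO2+IR and at 62.8, 62.2 and 60.0 in sgVec+IR. Every knockout library was below every control, and the second knockout library no longer stood out from its group. Among all genes 9.95% separated with CAD-KO2+IR lower and 21.0% in either direction, so 1 of 8 genes is near the background. The log2 fold change was -0.33 (standard error 0.0823, 95% interval -0.52 to -0.14, unadjusted p = 0.00447, adjusted p = 0.258, edgeR), close to its value without the correction and with a smaller error. APAF1 was the only one of the 8 with an unadjusted p under 0.05, which 9.92% of all genes had, and 0 of 8 were called (0.325% of all genes). Without sgVec+IR replicate 3 as well, the corrected log2 fold change of APAF1 was -0.35 with an adjusted p of 0.0259 from edgeR, and 4.42% of all genes had an adjusted p under 0.05 there. Over all 18 alternatives its adjusted p ran from 0.0157 to 1.0, and its log2 fold change was under 1.5-fold in each. The corrected log2 fold changes of the other 7 genes were between -0.14 (CASP6) and 0.30 (CASP10), with -0.00 for CYCS and 0.06 for XIAP.

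Fits that give less weight to the libraries that stood apart made more genes pass the adjusted p, all with small changes. In limma-voom with sample weights, the weight was 0.0404 for sgVec+IR replicate 3 and 0.154 for CAD-KO2+IR replicate 2, against 1.79 to 6.75 for the others. There 5 of 8 genes had an adjusted p under 0.05, as did 22.3% of all genes, and 0 of 8 reached 1.5-fold as well, against 5.15% of all genes. XIAP (log2 fold change 0.32, adjusted p = 0.0115, limma) and CYCS (0.18, adjusted p = 0.0298, limma) were higher in CAD-KO2+IR, and CASP9 (-0.42, adjusted p = 0.0272, limma), APAF1 (-0.27, adjusted p = 0.0157, limma) and CASP6 (-0.26, adjusted p = 0.0485, limma) were lower. With both libraries left out, 3 of 8 genes had an adjusted p under 0.05 in edgeR, against 16.2% of all genes, and 0 of 8 reached 1.5-fold, against 3.37%. These were XIAP (0.28, adjusted p = 0.00885), CYCS (0.18, adjusted p = 0.0184) and APAF1 (-0.26, adjusted p = 0.0247), each from edgeR with 2 libraries a group. The adjusted p ranged over all alternatives from 0.00885 to 1.0 for XIAP, from 0.0184 to 1.0 for CYCS, from 0.0272 to 1.0 for CASP9 and from 0.0485 to 1.0 for CASP6.

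Ratios of counts of a gene pair within a library do not depend on how libraries are scaled, and 6 of them were compared. APAF1 over XIAP, the scaffold against the inhibitor, was 0.610, 0.584 and 0.543 in CAD-KO2+IR and 0.813, 0.863 and 0.621 in sgVec+IR. All knockout libraries were below all controls, although the third control was close to the first knockout library. The mean log2 ratio was lower by 0.39 in CAD-KO2+IR (difference -0.39, two-sided exact permutation p = 0.1, adjusted p = 0.3 over the 6 ratios, n = 3 each). An exact p of 0.1 is the smallest that 3 libraries against 3 can give. Of all other genes set against XIAP, 6.31% had a ratio that separated in this direction. CYCS over APAF1, the ligand against its scaffold, was 6.97, 7.01 and 7.14 in CAD-KO2+IR and 5.18, 5.20 and 6.53 in sgVec+IR. The CAD-KO2+IR libraries were close together and above every control, with a log2 difference of 0.33 (exact permutation p = 0.1, adjusted p = 0.3). Both separated pairs hold APAF1, and 27.1% of all other genes had a ratio to APAF1 that separated in this direction.

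The other 4 ratios overlapped between the groups. The log2 differences were 0.14 for CASP9 over XIAP (exact permutation p = 1.0), 0.53 for CASP9 over APAF1 (p = 0.9, exact permutation), -0.57 for CASP8 over CASP10 (p = 0.9, exact permutation) and -0.03 for CASP8 over CFLAR (p = 0.9, exact permutation), where CFLAR encodes the catalytically inactive relative that competes with caspase-8. All 4 had an adjusted p of 1.0 over the 6 ratios by the same exact test. In CASP8 over CASP10 the third control library was at 27.5, against 4.35 to 6.66 in the other 5. Without that library these differences were -0.66, -0.13, 0.25 and 0.28, each with the opposite sign. CASP9 over XIAP was then lower in all 3 knockout libraries (0.102 to 0.116) than in the remaining controls (0.182 and 0.171). Its exact permutation p of 0.1 is the smallest that these 5 libraries can give. The share of all genes with such a ratio was not computed, but in CPM 45.7% of all genes separated in either direction without that library. The ratio was not corrected for GC content, in which CASP9 (52.8%) and XIAP (39.0%) differ.

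**Figure D4:**
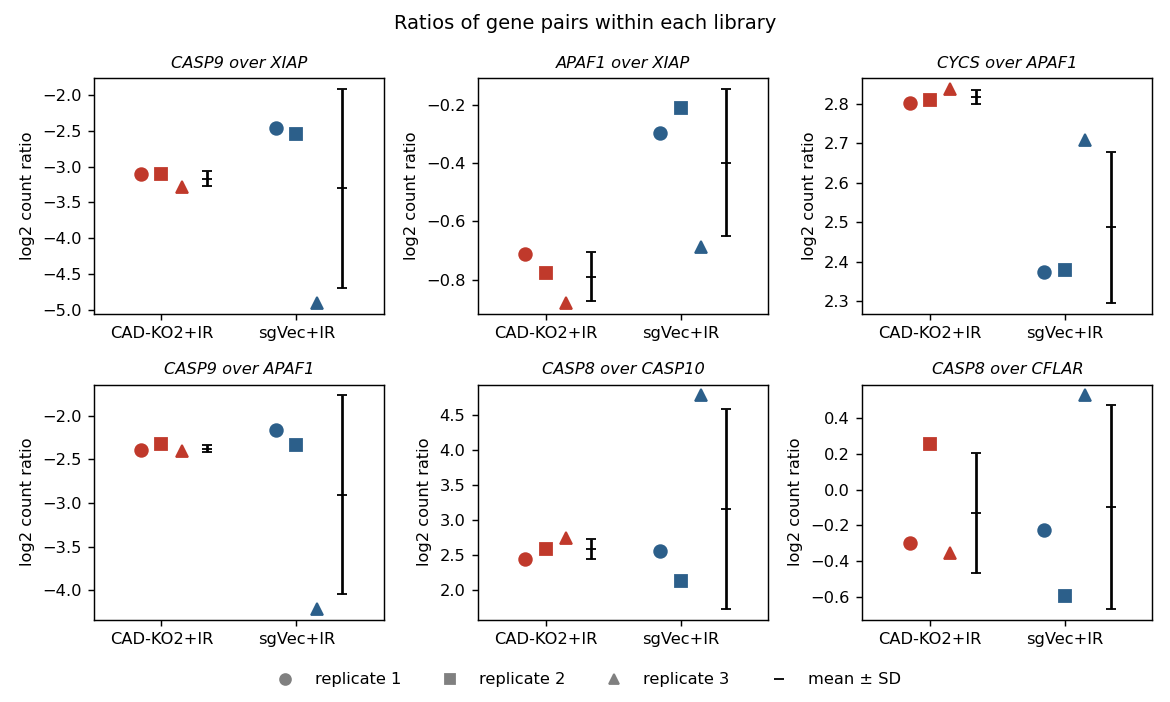
Log2 ratio of the counts of each gene pair (vertical axes, each with its own range) in the 3 CAD-KO2+IR libraries (red) and the 3 sgVec+IR libraries (blue), with the marker shape giving the replicate and black bars the mean ± SD. APAF1 over XIAP is lower and CYCS over APAF1 higher in all CAD-KO2+IR libraries, and sgVec+IR replicate 3 lies far from the other 5 libraries in the 3 panels that hold CASP9 or CASP10.

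Among the 8 genes, CYCS and XIAP ran most closely together over the 6 libraries, with a Pearson correlation of log2 CPM of 0.985 (0.962 without sgVec+IR replicate 3, 5 libraries). CASP8 followed both, at 0.957 with CYCS and 0.955 with XIAP, and CASP9 and CASP10 followed each other at 0.948. The last rested on sgVec+IR replicate 3 and was 0.483 without it. APAF1 and CASP9, the partners in the apoptosome, were at -0.643 over 6 libraries and 0.957 over 5. The points share library depth and the trend over GC content, and the values are descriptions without a test. Of all tested genes, the patterns most like those of the members were ZBED6 for CASP9 (0.998), VIRMA for CASP2 (0.998), OSGEPL1 for CASP8 (0.998), NAPSA for CASP10 (0.999), DNAI3 for APAF1 (0.997), CWF19L1 for CYCS (0.999) and SGCB for XIAP (0.999), over 6 libraries each. Such values were common. CYCS had 1583 genes with a correlation over 0.95, XIAP 1148 and CASP8 1101, whereas CASP6 had 7. For APAF1 the likest gene was also the likest without sgVec+IR replicate 3 (DNAI3, 0.998).

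A further 31 genes of the pathway with a row in the table were counted as a list, of which 26 had enough counts to be tested. No gene of this list passed the test either. Of the 26, 0 were called with edgeR (0.0309% of all genes) and 0 had an unadjusted p under 0.05 (2.85% of all genes). The groups did not overlap in 2 of them with CAD-KO2+IR higher (5.23% of all genes) and in 1 with it lower (5.01%). In CAD-KO2+IR 18 were higher and 8 lower, where 48.1% of all genes were higher, and the median log2 fold change was 0.08, next to -0.01 over all genes. DESeq2 called 0 of them as well (0.364% of all genes), and 0 had an unadjusted p under 0.05 there (3.21% of all genes). In limma-voom with sample weights 4 of the 26 had an adjusted p under 0.05 (22.3% of all genes), and 0 reached 1.5-fold as well (5.15% of all genes). The split was 13 higher and 13 lower without sgVec+IR replicate 3. The inflammatory caspase CASP4 was the only further caspase tested, since CASP1 and CASP14 had 0 counts in every library and CASP5 at most 5. CASP4 was at 8.02, 10.2 and 8.54 CPM in CAD-KO2+IR and at 6.12, 5.68 and 6.77 CPM in sgVec+IR. Its groups did not overlap, as in 10.2% of all genes in either direction, and its log2 fold change was 0.53 (standard error 0.229, unadjusted p = 0.0535, adjusted p = 1.0, edgeR). A count of 0 allows up to 3 counts, between 0.158 and 0.212 CPM in these libraries, and this limit covers counting error only.

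The direct partners of the 8 genes were described by role. On the platform of caspase-8 and caspase-10, RIPK1 had the largest log2 fold change of 3 genes at 0.23 (0.19 without sgVec+IR replicate 3), and CFLAR was at 0.02 (-0.08 without it). Without that library FADD had the largest absolute value at -0.22, after -0.13 with all libraries. On that of caspase-2, PIDD1 (log2 fold change -0.23) and CRADD were both lower in value. Without sgVec+IR replicate 3 PIDD1 was at -0.63 (adjusted p = 0.425, edgeR) and CRADD at -0.45. With both libraries that stood apart left out, PIDD1 was at -0.35 (adjusted p = 0.00266, edgeR), where 16.2% of all genes had an adjusted p under 0.05. After the GC correction PIDD1 was at -0.16 and its groups overlapped. The groups of CRADD did not overlap, as in 5.01% of all genes with CAD-KO2+IR lower. CRADD was at 5.90 ± 1.14 and 7.77 ± 0.579 CPM (SD, n = 3 each, log2 fold change -0.40, standard error 0.248). Of 5 genes that act on the apoptosome or on cytochrome c, AVEN, which binds APAF1, had the largest log2 fold change at -0.30, and HCCS, which attaches haem to cytochrome c, was at 0.13. Without sgVec+IR replicate 3 AVEN was at -0.08 and HCCS at 0.08, and CSE1L had the largest value at 0.26. Of 5 tested members of the family of XIAP, the inhibitors of apoptosis, NAIP had the largest value at 0.39 (standard error 0.786) and rested on 1 to 44 counts a library. Without sgVec+IR replicate 3, which held 1 of these counts, NAIP was at -0.14 and BIRC2 had the largest value at 0.42.

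DIABLO, the mitochondrial protein that relieves caspases of XIAP, was at 3.47, 3.43 and 3.13 CPM in CAD-KO2+IR and at 2.63, 2.60 and 0 CPM in sgVec+IR. All knockout libraries were above all controls, as in 5.23% of all genes, and sgVec+IR replicate 3 had no count. Its log2 fold change of 0.91 (standard error 0.667, unadjusted p = 0.217, edgeR) was 0.36 without that library. Among 8 caspase substrates 7 were higher in value, with log2 fold changes between -0.04 and 0.32, but without sgVec+IR replicate 3 it was 3 of 8 (48.1% and 48.7% of all genes). DFFA, which encodes the inhibitor that caspases cut to release CAD, was at 0.03. SPTAN1 (0.32), which encodes a spectrin of the cell cortex, was the highest of them with all libraries, but was at 0.06 without sgVec+IR replicate 3, where PAK2 was the highest at 0.45. With both libraries that stood apart left out, PAK2 was at 0.29 (adjusted p = 0.000610, edgeR), where 16.2% of all genes had an adjusted p under 0.05. PAK2 was at 0.14 with overlapping groups after the GC correction. After the GC correction SPTAN1 was the only gene of the 26 with an unadjusted p under 0.05, against 9.92% of all genes, and the groups of 8 of the 26 did not overlap, against 21.0% of all genes.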

How the data were processed

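RNA-seq libraries of CAD-KO2+IR (n = 3) and sgVec+IR (n = 3) HCT116 cells were compared. The authors cleaned reads with fastp and deposited raw counts per gene from featureCounts (v1.5.0-p3). Their own testing used DESeq2 (v1.36.0). The aligner, annotation and strand setting are not given in the sources used here. The labels name mm10 and genomic DNA, although identifiers are human and the protocol describes RNA. Of 20020 identifiers, 19823 matched GENCODE release 29 (GRCh38) without version, the source of positions, GC content and sequences. BIRC8, listed among the further genes, has no row. In R 4.3.3, genes passing filterByExpr (minimum count 10, total 15) were scaled by TMM and tested with edgeR 4.0.16 (quasi-likelihood, legacy FALSE, Benjamini-Hochberg over 12925 genes, called at adjusted p under 0.05 and 1.5-fold). CPM were computed on library sizes multiplied by the TMM factor. Ratios used two-sided exact permutation tests. Alternatives used DESeq2 1.42.0, limma 3.58.1, other scalings, filters and left-out libraries. The members and lists were chosen with earlier results of these data known. The GC correction (lowess trend of each library, span 0.3) and its combination with a left-out library were chosen after seeing the data. All members were named, and further genes where their groups did not overlap, an unadjusted p was under 0.05 or the change was the largest of their role. CFLAR, FADD, HCCS, PIDD1, CSE1L, BIRC2, PAK2 and the untested caspases were added for context with values seen. Patterns were matched by Pearson correlation of log2 CPM (prior count 2), and the likest gene of 2 per member is given, except for CASP6, whose match is not reported here. The fits were tested on simulated data. Depth was 14032994 to 19574144 counts per library, and counting error was at most 18.9% of a member's value.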

Additional observations from a re-analysis of the deposited data

How the results depend on the processing

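In each of the alternatives run, 0 of 8 genes and 0 of 26 further genes were called at adjusted p under 0.05 and 1.5-fold. Where it was computed, the share of all genes called ran from 0.0309% (edgeR, all libraries) to 5.15% (limma-voom with sample weights). The log2 fold changes of APAF1 (-0.44 to -0.16) and CASP6 (-0.22 to -0.05) kept their sign whichever library was left out. Those of the other 6 changed sign in at least 1 case, with ranges of -0.29 to 0.34 for CASP9, -0.0952 to 0.0684 for CASP2, -0.17 to 0.20 for CASP8, -0.0370 to 0.66 for CASP10, -0.18 to 0.27 for CYCS and -0.17 to 0.37 for XIAP. Besides left-out libraries, the sign changed with sample weights in limma-voom for CASP9 (-0.42), CASP8 (0.0905), CASP10 (-0.21), CYCS (0.18) and XIAP (0.32), without weights for CYCS (0.00192) and XIAP (0.0624), without a filter on low counts for XIAP (0.0117), with the GC correction for XIAP (0.0642) and with that correction and no sgVec+IR replicate 3 for CASP9 (-0.16), CASP8 (0.0351), CASP10 (-0.12), CYCS (0.0882) and XIAP (0.12). Without both libraries that stood apart it changed for CASP9 (-0.42), CASP8 (0.0802), CASP10 (-0.15), CYCS (0.18) and XIAP (0.28). Leaving out libraries moved the log2 ratio from -0.66 to 0.56 for CASP9 over XIAP, -0.13 to 0.90 for CASP9 over APAF1, -1.08 to 0.25 for CASP8 over CASP10 and -0.28 to 0.28 for CASP8 over CFLAR, but from -0.53 to -0.30 for APAF1 over XIAP and 0.27 to 0.44 for CYCS over APAF1. No source states whether same-numbered libraries belong together. Deviations of same-numbered libraries correlated at 0.468, -0.545 and -0.379. Those of the libraries that stood apart, CAD-KO2+IR replicate 2 and sgVec+IR replicate 3, correlated at 0.552. Their departures shape the other correlations as well, so these values cannot decide the pairing. With the number as a block, 0 of 8 genes were called and XIAP was at 0.0576. In all, 41 values changed sign under an alternative. Those that kept sign and side of the combined threshold (adjusted p under 0.05 and 1.5-fold), or, for counts, size, numbered 195. Passing an adjusted p of 0.05 alone was not scored as a change. APAF1 (adjusted p = 0.0157) and CASP6 (adjusted p = 0.0485) did so in limma-voom with sample weights and are among the 195. The number of genes whose groups did not overlap, 0 of 8 (10.2% of all genes), was 2 without sgVec+IR replicate 3 (45.7% of all genes). It was also 2 without CAD-KO2+IR replicate 2 and was 1 with total counts as library sizes. For these last settings the share of all genes was not computed. The cause of the changes of sign was not tested. With 3 libraries a group, log2 fold changes had standard errors of 0.158 to 0.438, and the 95% intervals of 6 of 8 genes reached beyond 1.5-fold.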
